A study of Nothobranchius furzeri with 10 samples.

Results

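A group of 269 genes in killifish skin was well counted in some libraries and all but missing from others. Each had fewer than 10 counts in at least 1 library and at least 10 CPM (counts per 1e6 counts) in at least 1 other, with CPM taken against the library's own total. They were 1.01% of the 26739 genes in the table and 2.23% of the 12044 genes that reached 10 CPM somewhere. The choice used the levels in every library, so the levels, counts and groupings given here are descriptions and carry no test.

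The libraries were made from male skin of the turquoise killifish Nothobranchius furzeri, an annual fish used to study ageing. All 10 came from the inbred GRZ strain at 10 weeks of age, and all carried the swim-tunnel label, a tunnel in which fish swim against a current. They form 1 group, with no unexercised group among the samples used here, so no change with exercise can be read. The labels do not tie each library to a separate fish, so part of the spread between them may be technical.

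Fish skin is a layered tissue of epidermis, mucous cells, scales, pigment cells, nerves, vessels and connective tissue over body muscle. RNA from a piece of it is a mixture over whatever cells the piece holds, and genes restricted to 1 cell type vary together when that type takes a different share. In such bulk RNA, fewer cells of a type and less RNA per cell cannot be told apart. The files give no gene names beside the identifiers, and of these 0 were found in the RefSeq gene table for NfurGRZ-RIMD1. The label "skin", the marker lists for keratinocytes, muscle, blood, pigment cells, bone, immune, nerve, gut, liver, pancreas and germ cells, and the functions of the 269 genes could therefore not be read out.

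Library totals ran from 23206247 to 37149070 assigned counts. A count of fewer than 10 stood for a level below 0.269 CPM in the deepest library and below 0.431 CPM in the shallowest. A count of 0 allows up to 0.0808 CPM and 0.129 CPM in the same libraries, taking 3 counts as the limit. These limits and all intervals below cover counting error only.

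The members' own levels spread widely. The highest level a member reached in any library had a median of 21.9 CPM and went from 10.1 to 6550 CPM. It was 100 CPM or more for 32 members and 1000 CPM or more for 5. Their lowest counts had a median of 2. Highest and lowest library differed by a median of 204-fold, with lowest counts under 3 taken as 3, and by at least 29.4-fold in each of the 269. The rule itself requires a wide range. It asks for at least 10 CPM and for under 10 counts, which is below 0.431 CPM even in the shallowest library. Of the 2690 values, 788 (29.3%) were below 10 counts, 102 of these at 0, and 710 (26.4%) were at 10 CPM or more. The rest lay between, with 525 values from 10 counts up to 1 CPM and 667 from 1 to 10 CPM.

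Near the limits of the rule the genes form a continuum. Lowest counts of 8 or 9 put 31 genes just inside, and lowest counts of 10 or 11 left 19 just outside. On the other side, 18 members reached no more than 10 to 11 CPM, the nearest at 10.1 CPM. A further 20 genes with a near-absent library stopped at 9 to 10 CPM, the nearest at 9.99 CPM.

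How many libraries carried a member depended on the level asked for, with 7 libraries frequent at each. With 1 CPM as the level at which a library carries a gene, 130 members were carried by 7 libraries, 46 by 1 and 33 by 2. The other 60 were spread over 3, 4, 5, 6, 8 and 9 libraries, with 13 in 8 libraries and 6 in 9. At the stricter 10 CPM, 144 members were carried by 1 library, 24 by 2, 33 by 7 and 0 by 8 or 9. With 10 counts as the level, the rule's own low limit, 2 members were carried by 1 library, 5 by 2, 108 by 7, 58 by 8 and 52 by 9. The peak at 1 library for 1 CPM was made by replicate 8 nearly alone, which carried 45 of the 46. With members chosen anew without replicate 8, 173 genes remained, and 1 of them was carried by 1 library. That fall is fixed by the choice, since genes at 10 CPM only in replicate 8 drop out.

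**Figure D1:**
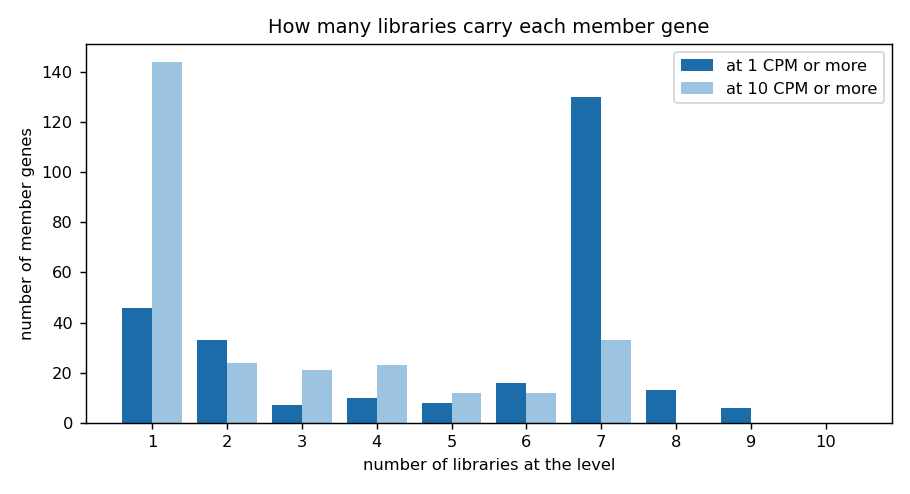
Number of member genes (vertical axis) by the number of libraries in which they reached 1 CPM (dark bars) or 10 CPM (light bars). At 1 CPM the tallest bars stand at 7 libraries (130 genes) and 1 library (46 genes), and at 10 CPM at 1 library (144 genes).

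Most members fell into a few patterns of carrying libraries. Of 46 different patterns of carrying libraries, a single one, replicates 2, 3, 4, 5, 6, 8 and 9, accounted for 126 members. Replicate 8 alone was the pattern of 45 members, and replicates 8 and 9 together that of 29. No other pattern held more than 5. Seen from the low side, 94 members were near absent in exactly replicates 1, 7 and 10, and 183 were near absent in no library outside those 3.

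Replicates 1, 7 and 10 thus lacked most of the members. Fewer than 10 counts were found for 186 members of replicate 1, 205 of replicate 7 and 189 of replicate 10. The next highest number was 63, in replicate 5, followed by 45 in replicates 2 and 6, 27 in replicate 4, 14 in replicate 3, 8 in replicate 8 and 6 in replicate 9. Replicate 1, with 186 such genes, had 36398252 counts in all, and replicate 2, the shallowest at 23206247, had 45. The part of depth in these numbers was not tested. Levels of 10 CPM or more were reached by 204 members in replicate 8, 150 in replicate 3 and 104 in replicate 9. They were reached by 12 in replicate 1, 7 in replicate 7 and 0 in replicate 10.

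**Figure D2:**
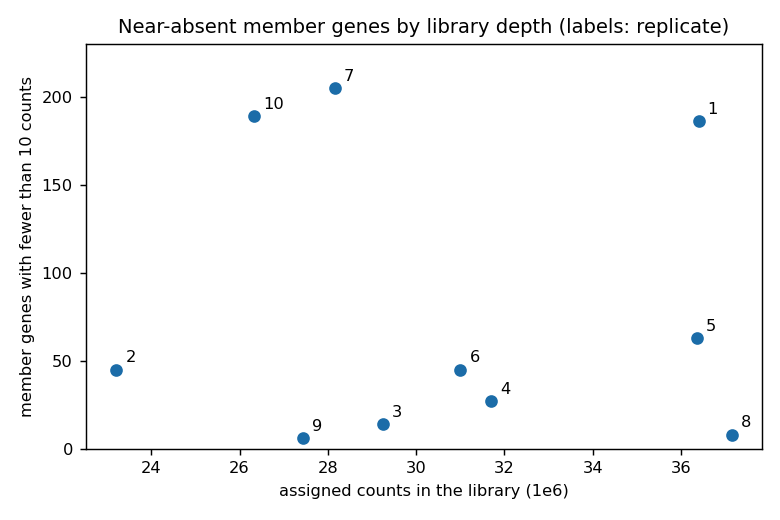
Number of member genes with fewer than 10 counts (vertical axis) against the library's assigned counts (horizontal axis, in units of 1e6), with 1 point per library labelled by replicate. Replicates 1, 7 and 10 stand at 186 to 205 genes over totals from 26329657 to 36398252, and the other 7 libraries at 6 to 63.

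The members' summed share of counts differed by the same libraries. It averaged 0.611% ± 0.720 (SD, n = 10) and had a median of 0.321%. Replicate 3 gave 2.17% (exact 95% binomial interval 2.167% to 2.178%), replicate 8 gave 1.42% and replicate 9 gave 1.01%. Below these lay replicate 2 at 0.614%, replicate 6 at 0.322%, replicate 5 at 0.321% and replicate 4 at 0.187%. Replicate 1 stood at 0.0262%, replicate 7 at 0.0182% and replicate 10 at 0.0115% (0.0111% to 0.0119%). No library fell between 0.0262% and 0.187%. The lowest shares depend on which libraries choose the members: replicate 10 stood at 0.00680% with members chosen without replicate 8. Without replicate 10, replicate 1 stood at 0.0166% and replicate 7 at 0.0120%.

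Few genes supplied most of these counts in every library but replicate 10. The 10 members highest in a library made up 37.8% of the member counts in replicate 10. In the other libraries they made up 50.8% (replicate 4) to 68.4% (replicate 3). In replicate 3 the first of them alone made up 30.1%. Without the 10 members with the largest summed counts, the share in replicate 3 was 0.693% and in replicate 8 it was 0.618%.

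Clustering by average linkage on the correlation of log2 CPM placed 252 of the 269 members in 3 sets of at least 5 genes, with the tree divided at 1 minus Pearson's r of 0.4. Set A had 155 genes, set B had 91 and set C had 6, and 17 genes joined no set. Members were chosen for their range over these same libraries, so correlation among them is partly built in.

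**Figure D3:**
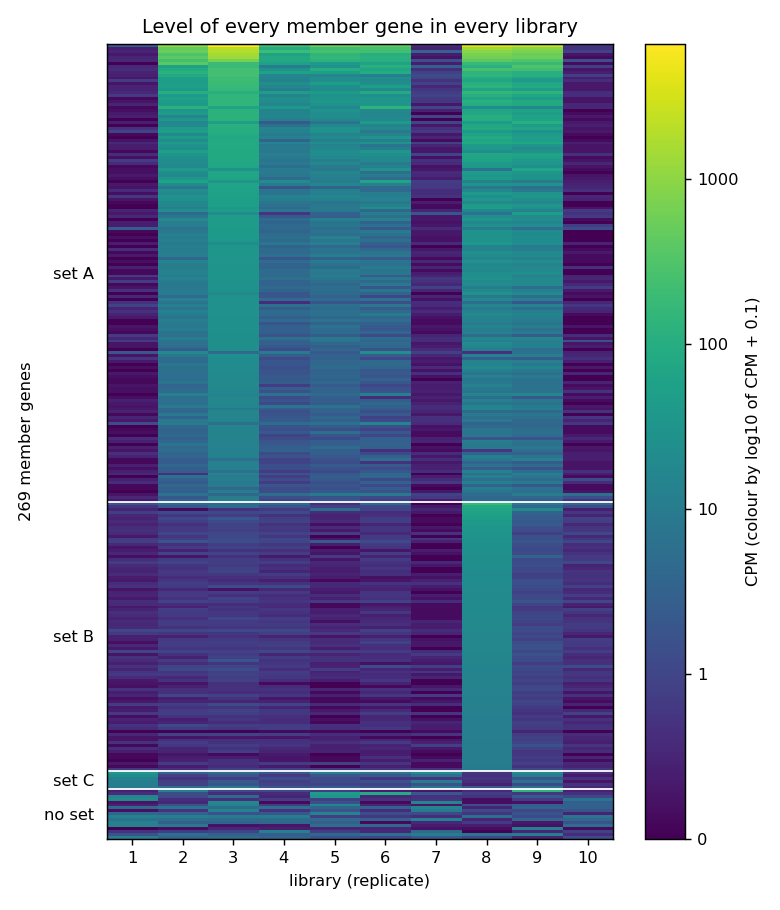
Level of each of the 269 member genes (rows, grouped by set and ordered by highest level) in each of the 10 libraries (columns), coloured by the log10 of CPM + 0.1. Set A is bright in 7 libraries and dark in replicates 1, 7 and 10, and set B is bright in replicate 8.

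Set A supplied 93.5% of all member counts when the 10 libraries were summed. It supplied far less in replicates 1, 7 and 10, with 1103 of 9544, 1330 of 5135 and 918 of 3023 member counts. In replicates 2, 3, 4, 5, 6, 8 and 9, from 145 to 155 of its 155 genes reached 1 CPM. In replicates 1, 7 and 10, only 4, 5 and 6 did. Near-absent counts were found for 128 of its genes in replicate 1, 119 in replicate 7 and 133 in replicate 10, against 1 gene in replicate 2 and 0 in the other 6 libraries. Its highest levels had a median of 30.4 CPM, and all 5 members at 1000 CPM or more belonged to it.

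The share of counts taken by set A was 2.16% in replicate 3 (exact 95% binomial interval 2.151% to 2.161%). It was 1.22% in replicate 8, 0.976% in replicate 9 and 0.602% in replicate 2. Replicates 6 and 5 gave 0.306% and 0.303%, and their intervals of 0.304% to 0.308% and 0.301% to 0.305% overlap. Replicate 4 had the least of the 7 carrying libraries, at 0.177%. The 3 remaining libraries lay far lower. Replicate 7 gave 0.00472% (0.00447% to 0.00498%), replicate 10 gave 0.00349% and replicate 1 gave 0.00303%.

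**Figure D4:**
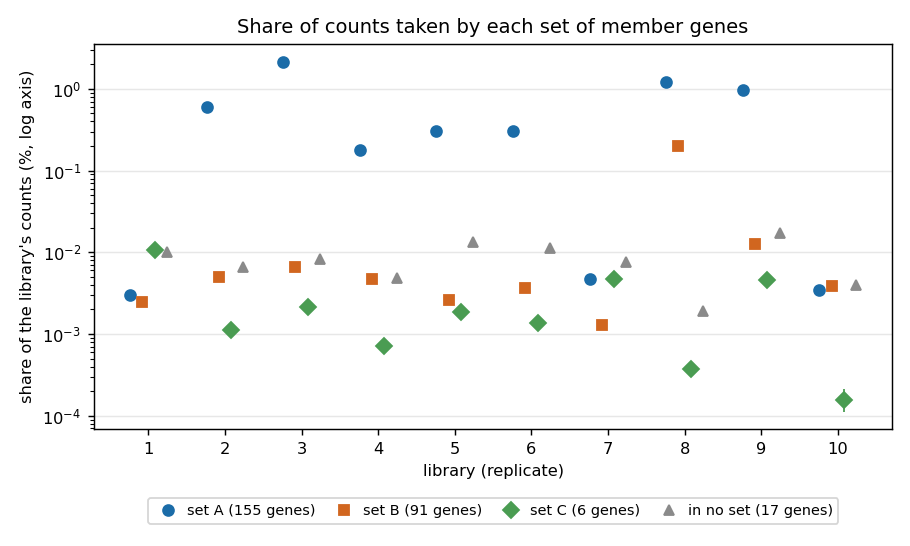
Share of each library's counts (vertical log axis, in %) taken by set A, set B, set C and the 17 genes in no set, with exact 95% binomial intervals as vertical lines, most of them smaller than the symbols. Set A lies between 0.177% and 2.16% in 7 libraries and at 0.00472% or less in replicates 1, 7 and 10, and set B lies at 0.202% in replicate 8 and at 0.0125% or less elsewhere.

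Within the 7 carrying libraries the proportions between genes of set A varied moderately. The median ratio of a gene's CPM to its CPM in replicate 3 was 0.559 in replicate 8 (quartiles 0.416 and 0.753) and 0.443 in replicate 9 (0.347 and 0.579). It was 0.313 in replicate 2, 0.185 in replicate 5 and 0.114 in replicate 4 (0.0830 and 0.148). Replicate 6 gave 0.159, and its quartiles of 0.0919 and 0.239 were the furthest apart for their level. Replicate 3 was the highest library for 131 of the 155 genes, replicate 8 for 12, replicate 9 for 7, replicate 6 for 4 and replicate 2 for 1. The share of all 12044 genes led by replicate 3 was not counted, so its number is a description only. Over these 7 libraries alone, the median r between 2 genes of the set was 0.89 (quartiles 0.75 and 0.95, 11935 pairs). Pairs among all 12044 genes at 10 CPM gave a median of 0.028 over the same libraries. Set A was clustered on r over all 10 libraries, these 7 included, so its high r here is partly built in.

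A small part of set A had its own order. Divided again over the 7 carrying libraries, a step chosen after seeing the data, the set held 1 group of 147 genes, 1 group of 4, and 4 single genes. The group of 4 took its largest shares of counts in replicate 6, at 0.0238%, and replicate 2, at 0.0218%. In replicate 3, the highest library of the 147, it took 0.0112%, and in replicate 8 it took 0.00377%. Replicates 1, 7 and 10 were again the 3 lowest in this group's summed share, at 0.000106% to 0.000313%. This did not hold for every gene of the group. Nfu_g_1_023024 stood at 0.404 CPM in replicate 8, below its 1.90 CPM in replicate 1 and 0.710 CPM in replicate 7.

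Nfu_g_1_015055 reached the highest level of any member. Its counts in replicates 1 to 10 were 100, 22904, 191572, 6945, 21464, 12759, 9, 127892, 71598 and 13. The lowest level was 0.320 CPM in replicate 7 (exact 95% binomial interval 0.146 to 0.607). Replicate 3 reached 6550 CPM, replicate 8 reached 3443 CPM and replicate 9 reached 2611 CPM. Replicates 7 and 10 were lowest, replicate 1 followed at 2.75 CPM, and the next library, replicate 4, stood at 219 CPM. The mean was 1481 ± 2139 CPM (SD, n = 10), an SD larger than the mean. Highest and lowest library differed 20492-fold (95% counting interval 10795 to 44815).

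This gene also shifted in weight inside its set. It made up 30.4% of set A's counts in replicate 3, 28.2% in replicate 8 and 26.8% in replicate 9, where the set was most abundant. In replicates 2, 5, 6 and 4 it made up 16.4%, 19.5%, 13.5% and 12.4%. In replicates 1, 7 and 10 its part was 9.07%, 0.677% and 1.42%.

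Nfu_g_1_020514 had the next highest summed count. Replicates 1 to 10 gave 5, 10959, 60558, 3065, 7460, 8174, 5, 49641, 24913 and 11 counts. Levels ran from 0.137 CPM, in replicate 1 (exact 95% binomial interval 0.0446 to 0.321) to 2071 CPM in replicate 3, and averaged 535 ± 697 CPM (SD, n = 10). The same 3 libraries were lowest and the same 3 highest as for Nfu_g_1_015055. Per length the gap between these genes was smaller: with implied lengths of 695 and 1514 bases, replicate 3 gave 2979 RPKM (reads per kilobase and per 1e6 counts, restored to the library's own total) for Nfu_g_1_020514 and 4326 RPKM for Nfu_g_1_015055. In replicate 2 the order per length was the reverse, at 679 and 652 RPKM, and in replicate 6 it was so at 379 and 272 RPKM. Replicates 7 and 10 also had the reverse order, at 0.256 and 0.211 RPKM and at 0.601 and 0.326 RPKM, from few counts. The other libraries kept the order of replicate 3.

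Nfu_g_1_016759, the gene with the highest mean correlation to the rest of set A, was far less abundant. Its counts in replicates 1 to 10 were 1, 152, 750, 86, 172, 111, 1, 484, 277 and 0. The highest level was 25.6 CPM in replicate 3, and the 0 counts in replicate 10 allow up to 0.114 CPM, taking 3 counts as the limit. These levels differed 225-fold. The counting interval of this difference had its lower end at 182.58-fold and, with 0 counts, no upper end. Its part of the set's counts was 0.104% to 0.156% in the 7 carrying libraries.

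**Figure D5:**
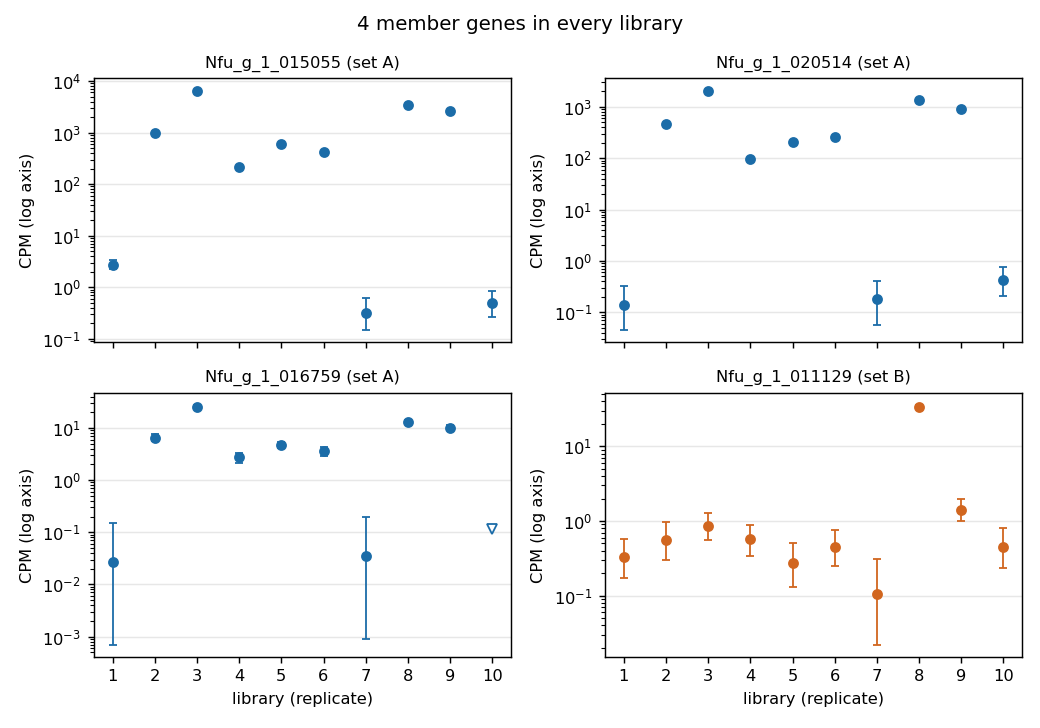
Level in CPM (vertical log axes) of 4 member genes in each of the 10 libraries, with exact 95% binomial intervals as bars and an open triangle at the 3-count limit where the count was 0. The 3 genes of set A lie lowest in replicates 1, 7 and 10, and the gene of set B reaches 33.9 CPM in replicate 8 and at most 1.42 CPM elsewhere.

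The order of libraries in set A also occurred outside the members. The 3 lowest levels lay in replicates 1, 7 and 10 for 148 of the 155 genes of set A and for 151 of the 269 members, against 3.35% of all 12044 genes at 10 CPM. A jump of at least 5-fold from there to every other library was found in 118 members, all of them in set A, and in 1.18% of the 12044 genes. These counts repeat what the rule and the clustering used. The 1.18% included 24 genes that the rule left out because their lowest count was 10 to 159. Together the 24 took 1.03% of the counts in replicate 3 and 0.00355% in replicate 10. Nfu_g_1_006412, whose values place it among these 24 genes, had 73 counts in its lowest library, replicate 10, and 104440 in replicate 3. Its counts are therefore already part of the shares just given.

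Set B was a group of 91 genes found at 10 CPM or more in replicate 8. All 91 were highest there and 86 were at least 10-fold above the next library, against 14.9% and 0.93% of the 12044 genes at 10 CPM. The set was chosen by this pattern. Its share in replicate 8 was 0.202% (exact 95% binomial interval 0.2005% to 0.2034%). Replicate 9 came next at 0.0125% (0.0121% to 0.0129%), then replicate 3 at 0.00655%, replicate 2 at 0.00501% and replicate 4 at 0.00470%. Replicates 10 and 6 gave 0.00390% and 0.00366%, replicates 5 and 1 gave 0.00260% and 0.00248%, and replicate 7 gave 0.00128%.

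In replicate 8 the median level of set B was 17.2 CPM with quartiles of 13.0 and 22.5 CPM, and 1 of the 91 passed 100 CPM. The 5 genes with the most counts made up 21.7% of the set's counts in that library, against 57.2% for the first 5 genes of set A. All 91 passed 10 CPM in replicate 8, and only 1 of them also did so in another library, replicate 9. Of the 155 genes of set A, 113 reached 10 CPM in replicate 8, so the rule sets part of this evenness. At 1 CPM, 43 of the 91 were also carried by replicate 9, 13 by replicate 3 and 0 by replicate 7. Near-absent counts were most frequent in replicate 7, with 80 genes, and in replicates 5 and 1, with 62 and 53.

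Low levels of set B in the other 9 libraries also moved together. Without replicate 8, the median r between 2 of its genes was 0.68 (quartiles 0.52 and 0.81, 4095 pairs, 9 libraries), and all 12044 genes at 10 CPM gave 0.037. Dividing the set again over these 9 libraries, chosen after seeing the data, kept 73 of the 91 genes in 1 group. The genes share their libraries, and 353 of the 819 values behind this are below 10 counts, so it describes the 9 libraries only. All 91 genes met the rule's low side in these 9 libraries, and the clustering used them too. This r is therefore partly built in, and the 12044 genes, not chosen this way, are no matched comparison. With Spearman's rho in place of Pearson's r, 147 genes of set A and 73 of set B fell into 1 set of 220. Leaving out replicate 8 with Pearson's r did not join the sets in this way, as 65 genes of set B stayed in a set of 66; the cause was not tested.

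Nfu_g_1_011129, the gene with the highest mean correlation to the rest of set B, had 12, 13, 25, 18, 10, 14, 3, 1261, 39 and 12 counts in replicates 1 to 10. Its level was 33.9 CPM in replicate 8 (exact 95% binomial interval 32.1 to 35.9) and 1.42 CPM in replicate 9 (1.01 to 1.94). The lowest was 0.107 CPM in replicate 7. Replicate 8 was 319-fold above replicate 7, with a 95% counting interval of 109 to 1547.

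Replicate 8 carried both large sets. Set A took 1.22% of its counts and set B 0.202%, whereas replicate 3, with more of set A, had set B at 0.00655%. In replicate 10 the sets were close, with set B at 0.00390% (0.00367% to 0.00415%) and set A at 0.00349% (0.00326% to 0.00372%). Their intervals overlap, which does not by itself show the shares to be equal. The order was not tested and is not read. Replicate 8 also had the largest total, 37149070 counts. Replicate 1, with 36398252, had set B at 0.00248%. A part of depth in these shares was not tested.

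Set C had 6 genes, all highest in replicate 1, a library that lacked most of sets A and B. It took 0.0107% of the counts there (exact 95% binomial interval 0.0104% to 0.0110%). Replicates 7 and 9 followed with 0.00467% and 0.00462%, and their intervals overlap. Replicate 10 was lowest at 0.000156% (0.000112% to 0.000211%), with 4 of the 6 genes near absent, and replicate 8 next at 0.000371%. One gene of the set accounted for 36.9% of its counts in replicate 1.

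The 17 genes in no set followed no common order, with a median r of 0.074 between them. Several were tied to 1 or 2 libraries. A single gene stood at 93.2 CPM in replicate 6 and 43.3 CPM in replicate 5, and at 1.95 CPM or less in the other 8. A pair reached 132.5 and 12.0 CPM in replicate 9. In replicate 2 the first of these stood at 13.0 CPM and the other at 0.0431 CPM, and in the other 8 libraries they summed to at most 1.27 CPM. Another pair, with consecutive identifiers, summed to 31.0 CPM in replicate 3 and 26.0 CPM in replicate 7, and to at most 4.33 CPM in the rest. A group of 3 went the other way in its sum, with 6.23 to 31.8 CPM in 9 libraries and 0.431 CPM in replicate 8. Of these genes, 2 reached 1 CPM in every library but replicate 8. The remaining gene reached it only in replicates 4 and 7, at 11.4 and 4.51 CPM, and was also near absent in replicates 6 and 9.

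Over the 23 genes outside sets A and B, replicate 1 was the highest library for 11, of which 6 were the genes of set C. Replicate 8, which led 103 of the 269 members, led 0 of these 23, and 8 of the 23 were near absent there. Of the 103, 91 were in set B and 12 in set A, so this 0 follows from leaving those sets out. Replicate 10 led 0 of the 269 members. Among the 12044 genes at 10 CPM, the share led by a library was counted for replicate 8 only, at 14.9%. The numbers led by replicates 1, 3 and 10 are therefore descriptions only.

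Sample codes in the titles run from 74 to 78 for replicates 1 to 5 and from 80 to 84 for replicates 6 to 10. CPM values failed to overlap between the runs in 1 of the 269 members, against 30.4% of the 12044 genes at 10 CPM. The rule for members does not itself prevent such a split. In set A, 148 of the 155 genes were lower in replicates 1, 7 and 10 than in all other libraries. Those replicates come from both runs, so the values of these genes must overlap. A high level of set B in replicate 8 does not settle the matter for that set. Members were chosen for their range over the same libraries, so the 12044 genes are no matched comparison and nothing is read from the difference. The split had been noticed earlier in these data, and the labels give both runs the same perturbation.

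Implied gene lengths of the members had a median of 2139 bases (quartiles 1410 and 3539), and the 12044 genes at 10 CPM had 3166 (1710 and 5282). Restricted to a highest level of 10 to 50 CPM, the medians were 2087 bases for 206 members and 2851 for 7708 genes. The medians of sets A and B were 2130 and 2288 bases. Counts grow with length and the rule is set on counts, so length is not independent of the choice and the difference is given as a description only. Some members also stood next to each other in the table. There were 15 pairs of members in neighbouring rows, and 13 of the 15 were in the same set or smaller cluster, whereas 44.5% of all member pairs were. Whether row order follows position in the genome is not given in the sources used here, and counts of near-identical or overlapping neighbours may not be separable.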

How the data were processed

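Libraries were prepared from total RNA with Illumina's TruSeq RNA kit v2, per the labels' protocols. The submitters' processing notes name featureCounts 1.4.6-p4, STAR 2.4.1d and bcl2fastq 1.8.4. For genome build, annotation and use of strand, nothing is stated there. The authors deposited whole-number counts per gene and, for the same genes and libraries, RPKM values. Columns were matched to libraries by title, and replicate numbers follow record order and only name a library.

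In the deposited RPKM, 90.0% of cells were divided by another library's total: counts over RPKM gave 1 length per gene (largest coefficient of variation 0.00662% over 4151 genes) when the 10 totals were cycled down the rows. Gene lengths were implied this way, and RPKM was restored with each library's own total.

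CPM used column totals. Clustering used log2 CPM with a prior count of 2 and average linkage. The rule and clustering were also run on simulated counts, but the outcome is not given here and nothing is read from it. Intervals of shares are Clopper-Pearson at 95%. No test between groups was run, as there is 1 group and the members were chosen from the values in all 10 libraries. Dixon's limit was applied to 11 measures per library to mark values for a closer look. The members and lists were chosen with earlier results of these data known. Identifiers printed were the member with the highest CPM, that with the next summed count and the centres of both large sets. Nfu_g_1_006412 and Nfu_g_1_023024 were added after their values were seen. Alternatives covered the rule's thresholds, scaling by TMM (edgeR 4.0.16) and DESeq2 1.42.0 size factors, restored RPKM, clustering settings and each library left out. Python 3.11.15, numpy 2.4.6, scipy 1.17.1, pandas 2.3.3 and R 4.3.3 were used.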

Additional observations from a re-analysis of the deposited data

Results flagged for a closer look

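Of 11 measures checked by library, 5 had their highest or lowest library separated from the rest by more than Dixon's 95% limit for 10 values, a gap of 0.466 of the whole range. By chance about 1 in 20 groups of values passes it, but that rate does not hold here. The genes and sets were picked for their range, and set B for being high in replicate 8, so passing the limit was largely fixed by the choice and supports nothing. The share of counts of set B in replicate 8 was 0.202%, with a gap of 0.944 on that scale. The central gene of that set, Nfu_g_1_011129, stood at 33.9 CPM in replicate 8, with a gap of 0.961. The share of set C in replicate 1 was 0.0107%, with a gap of 0.571. Nfu_g_1_015055 stood at 6550 CPM in replicate 3, with a gap of 0.474, and Nfu_g_1_016759 at 25.6 CPM in the same library, with a gap of 0.492. Both genes belong to set A, whose summed share stayed under the limit with a gap of 0.435.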

How the results depend on the processing

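No paired analysis was possible because all libraries belong to 1 group. Of 112 counts under alternatives, 32 moved by over 1.5 times. Of 150 shares of counts in single libraries, 29 did. Over the 16 settings tried for shares, replicates 1, 7 and 10, where included, stayed below the others. The 269 members became 451 with 5 CPM and 149 with 20 CPM on the high side. With each library left out they numbered 173 to 268, the lowest without replicate 8, and TMM or DESeq2 scaling gave 265 and 264. A restored RPKM of 10 on the high side gave 186, of which 148 were among the 269. Against the reported shares, those of the libraries were 0.411 to 0.609 times as large with under 5 counts, 1.08 to 1.94 times with under 20 counts, 1.02 to 1.82 times with 5 CPM and 0.357 to 0.969 times with 20 CPM. Without the 10 members with the most counts they were 0.319 to 0.983 times as large. Requiring under 5 counts lowered the share of counts in replicate 3 to 0.896% and in replicate 8 to 0.689%, and leaving out the 10 members with the most counts gave 0.693% and 0.618%. Genes carried by 1 library were 144 at 10 CPM and 2 at 10 counts. With each library left out and the members chosen anew, they were 1 to 74 (1 without replicate 8, 74 without replicate 9). Those carried by 7 libraries were 33 at 10 CPM, and 11 to 132 with each library left out, since without a carrying library 7 become 6. At 0 counts in place of fewer than 10, near-absent genes in replicates 1 to 10 numbered 29, 1, 1, 0, 7, 1, 30, 1, 0 and 32. At the CPM of 10 counts in the shallowest library they became 32 in replicate 3, 50 in replicate 4, 75 in replicate 6 and 13 in replicate 8. Spearman's rho gave 5 sets, the second with 9 genes. With each library left out there were 3 to 5 sets, 5 of them without replicate 8, where the largest had 164 genes, 154 from set A and 10 from set B, and the second 66. Depth limits the low side: fewer than 10 counts is a looser limit in the shallowest library.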
